A study of Mus musculus with 7 samples.

Results

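The Hu/ELAV family was followed through the retina at embryonic day 16 (E16), in mice in which 1 or both copies of *Ptbp1* were deleted in retinal progenitors. Its 4 members, *Elavl1*, *Elavl2*, *Elavl3* and *Elavl4*, were taken by gene name from the 48440 genes of the count table, and each name matched 1 row. Of the 7 bulk RNA-seq libraries, 1 was wildtype (Chx10Cre, WT), 3 were heterozygous (Chx10-Cre;Ptbp1lox/WT, Het) and 3 were homozygous for the floxed allele (Chx10-Cre;Ptbp1lox/lox, KO). All of them, WT included, carry Chx10-Cre, a Cre transgene that acts in retinal progenitors and whose deletion is inherited by the cells they form. The loxP sites surround the promoter and first exon of *Ptbp1*, and each library was a pool of several retinas of one genotype. The number of embryos behind a pool is not given in the sources used here, so p-values measure only the spread between pools. Counts on genes summed to between 120593979 and 171117305 per library. *Ptbp1* itself was at 381 CPM in WT, 210 to 234 CPM in Het and 6.04 to 46.9 CPM in KO, where CPM is the count of a gene scaled to one common library total with TMM factors. Its paralog *Ptbp2* was at 338 CPM in WT, 428 to 455 CPM in Het and 529 to 549.8 CPM in KO.

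Hu proteins are RNA-binding proteins with a tandem pair of RNA recognition motifs, a hinge and a last RNA recognition motif near the end of the protein. They bind U-rich and AU-rich stretches of RNA, and are known for protecting mRNAs from decay and for acting on their splicing and translation. *Elavl1* encodes HuR, which is found in nearly every cell type. *Elavl2*, *Elavl3* and *Elavl4* encode HuB, HuC and HuD, which appear as neurons leave the cell cycle, and antibodies against HuC and HuD are used to mark ganglion and amacrine cells of the retina. PTBP1 is a splicing repressor of progenitors and glia known for holding back neuronal exons. The comparison asks how the ubiquitous and the neuronal members of another RNA-binding family stood when *Ptbp1* was deleted.

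The 4 genes are close relatives, which raises the question of whether a short read could be counted on the wrong one. In the GENCODE annotation of GRCm38, *Elavl2* lies on chromosome 4 from 91250763 to 91400785 and *Elavl4* on the same chromosome from 110203722 to 110351909. *Elavl1* lies on chromosome 8 from 4285382 to 4325413 and *Elavl3* on chromosome 9 from 22015005 to 22052023, and all 4 are protein-coding genes on the minus strand. Between their longest coding sequences, aligned end to end, 71.6% (*Elavl1* and *Elavl3*) to 78.1% (*Elavl3* and *Elavl4*) of the paired bases were identical, and *Elavl1* was the more distant from each of the others. The longest stretch of coding sequence without a difference, 29 bases in *Elavl3* and *Elavl4*, falls in the part that encodes the last RNA recognition motif. In the other pairs the longest such stretch was 17 to 23 bases. The 60 coding bases around the stretch of *Elavl3* and *Elavl4* are shown here for all 4 mouse genes, with capitals where a base differs from *Elavl4*:
Elavl4: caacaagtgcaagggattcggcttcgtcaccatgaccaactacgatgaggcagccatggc
Elavl3: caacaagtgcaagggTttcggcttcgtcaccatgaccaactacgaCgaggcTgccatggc
Elavl2: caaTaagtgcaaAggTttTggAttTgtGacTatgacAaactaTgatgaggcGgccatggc
Elavl1: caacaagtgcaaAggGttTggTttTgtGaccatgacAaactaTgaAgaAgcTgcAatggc
*Elavl3* differed from *Elavl4* at 3 of these bases, *Elavl2* at 11 and *Elavl1* at 12. No window of 50 bases in the annotated transcripts of 1 member occurred in those of another, so a read that covers at least 50 exonic bases without error belongs to a single member. Outside the family, 1.497% of the windows of *Elavl1* also occur in *Ccl25*, a chemokine gene transcribed from the opposite strand, and 3.13% of those of *Elavl3* occur in other genes, mainly the overlapping *Gm49318*, which is not a row of the count table. *Ccl25* had 339 to 495 counts per library, against 21141 to 29125 for *Elavl1*. Whether the counting used strand is not given in the sources used here.

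The annotated starts of the members differ in number and in base composition. RefSeq gives 1 start each for *Elavl1* and *Elavl3*, 4 for *Elavl4* and 6 for *Elavl2*. The counts are per gene and cannot tell the starts apart. A window of 300 bases around the RefSeq start, most of it upstream of that start, is shown for the genes with a single start. The outermost and the next start of *Elavl4* are shown as well (GRCm38.p6, minus strand). In GENCODE the *Elavl1* gene reaches to 4325413, so by that annotation its window lies inside the gene. Capitals mark the CCAAT box, the palindrome CAGCTG and the core motif TATAAA on either strand, which were chosen after the sequences had been read:
Elavl1, chr8:4325051-4325350: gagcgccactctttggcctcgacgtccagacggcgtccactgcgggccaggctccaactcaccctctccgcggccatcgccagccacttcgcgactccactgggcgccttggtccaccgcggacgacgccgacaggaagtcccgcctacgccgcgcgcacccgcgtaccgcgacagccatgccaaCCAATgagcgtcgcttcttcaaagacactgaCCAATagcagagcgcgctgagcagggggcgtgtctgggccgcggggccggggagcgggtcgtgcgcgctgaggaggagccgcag
Elavl3, chr9:22051974-22052273: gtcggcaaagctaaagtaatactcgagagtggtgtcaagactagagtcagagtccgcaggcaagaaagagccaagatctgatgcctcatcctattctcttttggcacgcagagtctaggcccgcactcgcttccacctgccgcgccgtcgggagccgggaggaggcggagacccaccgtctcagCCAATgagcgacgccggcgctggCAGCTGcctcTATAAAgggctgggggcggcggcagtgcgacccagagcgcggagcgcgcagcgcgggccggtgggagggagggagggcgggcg
Elavl4 outermost, chr4:110351862-110352161: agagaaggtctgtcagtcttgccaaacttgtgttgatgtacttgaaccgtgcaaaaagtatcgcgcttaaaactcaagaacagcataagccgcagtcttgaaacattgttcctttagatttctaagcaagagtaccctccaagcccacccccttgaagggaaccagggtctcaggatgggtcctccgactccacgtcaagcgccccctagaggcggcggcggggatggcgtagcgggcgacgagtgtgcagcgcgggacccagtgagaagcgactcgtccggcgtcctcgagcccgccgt
Elavl4 next, chr4:110287478-110287777: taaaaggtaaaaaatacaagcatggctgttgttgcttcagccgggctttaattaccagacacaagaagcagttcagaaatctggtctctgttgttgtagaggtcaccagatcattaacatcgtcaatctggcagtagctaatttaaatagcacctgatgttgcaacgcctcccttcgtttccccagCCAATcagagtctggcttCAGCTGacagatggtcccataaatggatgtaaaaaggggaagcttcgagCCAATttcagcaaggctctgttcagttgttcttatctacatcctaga
The window of *Elavl1* had a GC content of 70.0% with 39 CpG, against a median of 52.7% and 7 CpG over 32851 mouse promoters. *Elavl3* had 65.3% and 29 CpG. The outermost window of *Elavl4* had 57.0% and 23 CpG, and its 3 other windows had 43.7% to 47.3% and 4 to 6 CpG. CAGCTG, a palindromic E-box of the kind bound by bHLH factors, was present in 16.3% of all promoters. It was found once in the window of *Elavl3*, at 1 site of *Elavl4* and at 2 sites of *Elavl2*, and not in the window of *Elavl1*. The site of *Elavl4* and 1 of those of *Elavl2* each lie in a pair of overlapping windows, so the windows are not independent. CCAAT was in 37.4% of all promoters and in at least 1 window of each member. TATAAA was in 13.6% of all promoters, and among the members in that of *Elavl3* only. These shares are per single window. *Elavl2* had 6 windows and *Elavl4* had 4, so a match in any of theirs is not comparable with the shares. No match overlapped another in the windows shown.

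In the E16 retina the neuronal members *Elavl3* and *Elavl4* were expressed above the ubiquitous *Elavl1*, and *Elavl2* below it. For comparing genes, CPM was divided by the exonic length in kilobases (RPKM). Averaged over the 7 libraries, *Elavl3* stood at 56.1 RPKM, *Elavl4* at 41.6, *Elavl1* at 17.2 and *Elavl2* at 8.86. Among the 19931 tested genes with an annotated length these levels are at the 96.3rd, 94.4th, 84.1st and 72.05th percentile. Within a library, the log2 difference between *Elavl3* and *Elavl4* was 0.45 ± 0.26 (SD, n = 7), that between *Elavl4* and *Elavl1* was 1.25 ± 0.28 (SD, n = 7) and that between *Elavl1* and *Elavl2* was 0.96 ± 0.061 (SD, n = 7). Each had the same direction in 7 of 7 libraries. The pairs are neighbours in the order seen in these same libraries, so the differences are a description, without a p-value. All genotypes are pooled in them, and the wider spread around *Elavl4* holds the difference between KO and the other genotypes. The second step rests on the exonic length used. Per kilobase of coding sequence, the mean difference of *Elavl4* over *Elavl1* was 0.070 on the log2 scale, with a range of -0.36 to 0.33. This mean was within its spread (SD 0.28). By coding length *Elavl4* was above *Elavl1* in only 4 of 7 libraries, WT and the 3 Het libraries, and below it in the 3 KO libraries.

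**Figure D1:**
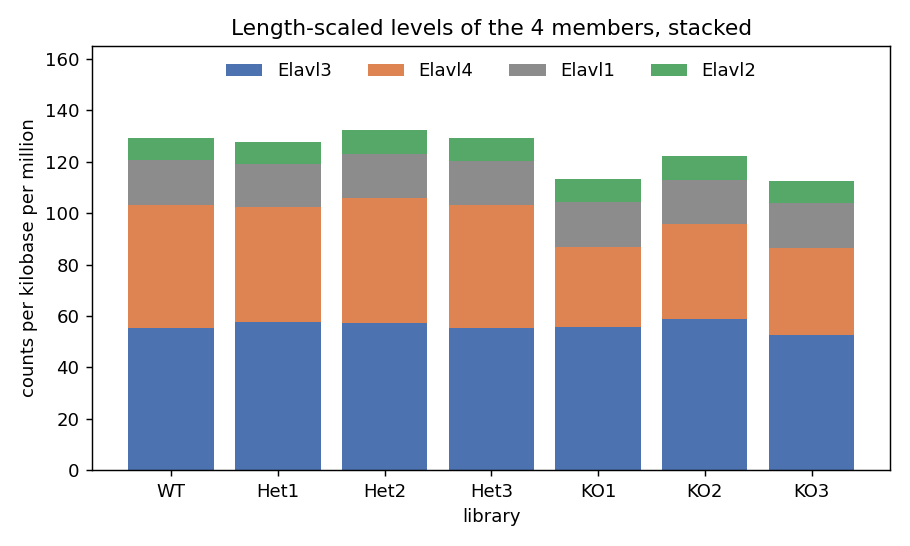
Stacked bars of the length-scaled levels (RPKM, or CPM per kilobase of exon, linear axis from 0) of the 4 members in each of the 7 libraries. *Elavl3* and *Elavl4* make up most of each bar, and the *Elavl4* segment is 44.8 to 48.8 in the 3 Het libraries and 31.1 to 37.0 in the 3 KO libraries.

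*Elavl4* was lower in every KO library than in any Het library, while the 3 other members differed between the Het and KO means by 0.041 or less on the log2 scale in either direction. The members were chosen by family name with their CPM and fold changes in KO and Het already known, so their values in that comparison are given as a description, without p-values. In a bulk library, fewer cells that express a gene and less RNA per cell cannot be told apart.

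*Elavl4* encodes HuD, known in neurons for stabilizing mRNAs of axon growth. It stood at 257 CPM in WT, 241, 263 and 258 CPM across Het1, Het2 and Het3, and 168, 199.5 and 182 CPM across KO1, KO2 and KO3. The highest KO library was below the lowest Het library, and WT lay inside the Het range. The Het mean was 254 ± 11.4 CPM and the KO mean 183 ± 15.98 CPM (SD, n = 3 each), or 72.1% of Het, and the log2 fold change between them -0.47 (standard error 0.068, 95% interval -0.64 to -0.31). Among the KO libraries, KO2 held the least *Ptbp1* and the most *Elavl4*, and *Ptbp1* and *Elavl4* did not follow the same order. The Het library with the lowest value was Het1, in which skeletal muscle and pigmented-cell genes were high, and without it the log2 fold change was -0.51.

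*Elavl1*, the HuR gene, was at 182 CPM in WT, 171, 177 and 176 CPM across Het1, Het2 and Het3, and 182, 178 and 181 CPM across KO1, KO2 and KO3. The KO libraries were all above the Het libraries, by a margin of less than 1 CPM between the nearest of them, and WT was above the Het range. The log2 fold change was 0.041 (standard error 0.028, 95% interval -0.026 to 0.11), from 175 ± 3.18 to 180.1 ± 1.92 CPM (SD, n = 3 each). With scaling by total counts alone it was 0.068.

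*Elavl2*, the HuB gene, was the least abundant member, at 71.7 CPM in WT, 70.5, 76.7 and 75.0 CPM across Het1, Het2 and Het3, and 71.9, 77.4 and 72.2 CPM across KO1, KO2 and KO3. The Het and KO libraries were interleaved. The log2 fold change was -0.0053 (standard error 0.045, 95% interval -0.11 to 0.10).

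*Elavl3*, the HuC gene, had the highest counts of the family, at 380.4 CPM in WT, 397, 394 and 381 CPM across Het1, Het2 and Het3, and 385, 405 and 362 CPM across KO1, KO2 and KO3. Both the highest and the lowest of these values were KO libraries, and the groups overlapped. The log2 fold change was -0.025 (standard error 0.047, 95% interval -0.14 to 0.088). The sign of the *Elavl2* and the *Elavl3* value changed with scaling by total counts alone.

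By edgeR's quasi-likelihood test, with an adjusted p below 0.05 and a change of more than 1.2-fold, 1 of the 4 members, *Elavl4*, was differentially expressed between KO and Het, against 7.22% of the 20019 genes tested (4.01% higher and 3.21% lower in KO). Het and KO were fully separated for 2 members, *Elavl4* and *Elavl1*, and for 36.3% of all genes tested. Since the family was chosen with this comparison in view, nothing is read from these shares. With a library left out, *Elavl4* met both limits in 4 of the 6 fits. It did not without Het2 (log2 fold change -0.45) or without Het3 (-0.46). These fits reuse the libraries in which the family was chosen, so they add no support.

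**Figure D2:**
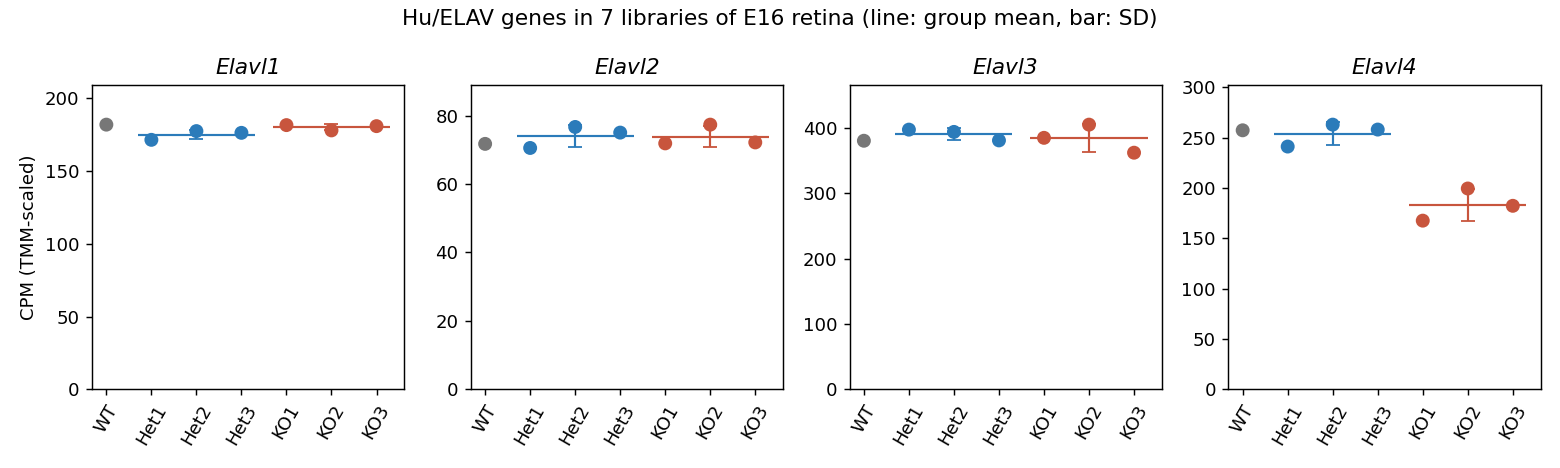
TMM-scaled CPM (linear axes from 0, 1 panel per gene) of the 4 Hu/ELAV genes in each library, with WT in grey, Het in blue and KO in red, lines at the group means and bars of 1 SD over 3 libraries. The KO points of *Elavl4*, at 168 to 199.5 CPM, lie below its Het points at 241 to 263 CPM, while the Het and KO points of *Elavl2* and *Elavl3* are interleaved.

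Set against *Elavl1* in the same library, per kilobase, *Elavl4* was 2.72 times as abundant in WT, 2.79 times in Het and 1.95 times in KO. The log2 ratio was 1.44, 1.51 and 1.49 in Het1 to Het3 and 0.83, 1.11 and 0.96 in KO1 to KO3, so the groups did not overlap. The log2 ratio of *Elavl3* to *Elavl1* had a mean of 1.75 ± 0.051 in Het and 1.68 ± 0.093 in KO (SD, n = 3 each), and that of *Elavl2* to *Elavl1* of -0.92 ± 0.036 and -0.97 ± 0.075 (SD, n = 3 each). In both, the Het and KO libraries overlapped. These ratios do not depend on the scaling between libraries, but their size depends on the length used. Over the 7 libraries, the mean fold of *Elavl4* over *Elavl1* was 2.39 by exonic length. It was 1.72 by the longest transcript and 1.05 by coding length. The differences between groups are the same for each length. The ratios hold the same comparison in which the family was chosen and carry no test.

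**Figure D3:**
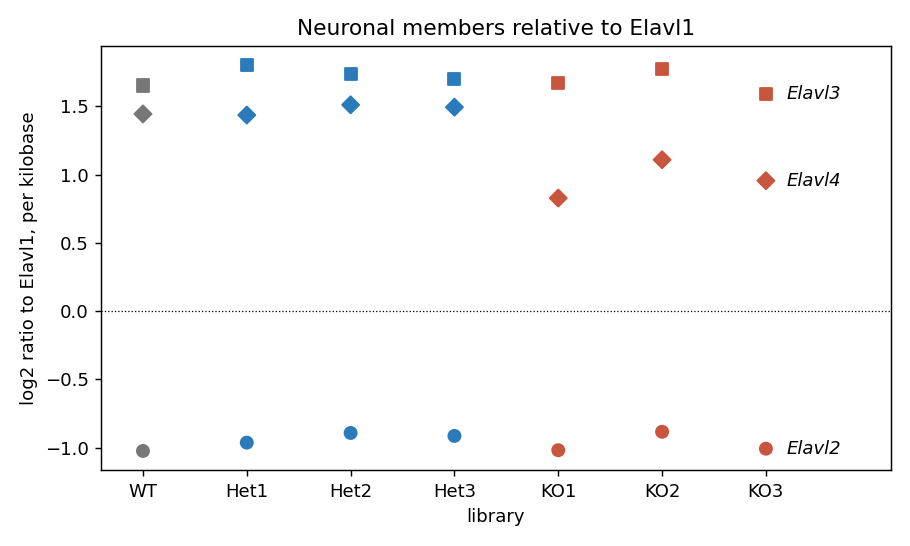
Log2 ratio of each neuronal member to *Elavl1*, per kilobase of exon, in each library (WT grey, Het blue, KO red, dotted line at equal levels). *Elavl3* and *Elavl2* keep to narrow bands across the genotypes, and *Elavl4* is at 1.44 to 1.51 in Het and at 0.83 to 1.11 in KO.

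The summed level of the family was 129 RPKM in WT, 129.7 ± 2.46 (SD, n = 3) in Het and 116 ± 5.47 (SD, n = 3) in KO. *Elavl4* made up 37.0% of it in WT, 36.4% ± 1.08 (SD, n = 3) in Het and 29.3% ± 1.55 (SD, n = 3) in KO. The share of *Elavl3* was 42.7% in WT, 43.7% ± 1.32 (SD, n = 3) in Het and 48.0% ± 1.34 (SD, n = 3) in KO. *Elavl1* went from 13.0% of the family in Het to 15.0% in KO and *Elavl2* from 6.87% to 7.66%. Since shares sum to a whole, a lower share of one member raises the others. The sum and the shares rest on the exonic length used.

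The loss of 1 copy of *Ptbp1* was compared in the same genes by setting WT beside Het. The single WT library allows no test, and the Het libraries are the same as in the comparison with KO. WT minus Het was 0.055 for *Elavl1*, -0.046 for *Elavl2*, -0.039 for *Elavl3* and 0.019 for *Elavl4* on the log2 scale. None of the 4 was past a difference of 1.2-fold, as 24.0% of the tested genes were. WT lay inside the Het range for 2 of the 4, *Elavl2* and *Elavl4*, and for 48.7% of the tested genes. The KO mean of *Elavl4* was 71.2% of the WT value, and the KO means of *Elavl1*, *Elavl2* and *Elavl3* were 99.0%, 102.9% and 101.0% of it.

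The genes whose profile over the 7 libraries was most like that of each member were named by the smallest root mean square difference of centred log2 CPM, among 11317 genes of at least 5 CPM. For *Elavl4* these were *Fggy*, *Fgf15* and *Chrm3*, at 0.027, 0.038 and 0.048. For *Elavl3* they were *Cntn5*, *Dpysl3*, a member of the CRMP family of axon growth, and the kinesin light chain gene *Klc1*, at 0.010, 0.012 and 0.017. For *Elavl1* they were the DNA ligase gene *Lig4*, *Vps29* of the retromer and the importin gene *Kpna4*, at 0.0077, 0.0089 and 0.010. For *Elavl2* they were *Ift22*, *Rnf157* and *Usp46*, at 0.019, 0.023 and 0.025. With the Het and KO libraries alone, 2 of the 3 genes were shared for *Elavl1* and *Elavl3*, 1 for *Elavl4* and 0 for *Elavl2*, so these names are a description of 7 libraries.
In the stretches of 1 Mb on either side of the members, 2 of 34 tested genes around *Elavl1* and 2 of 61 around *Elavl3* were differentially expressed. Around *Elavl4* it was 1 of 10, *Cdkn2c*, which was higher in KO, and the single tested neighbour of *Elavl2* was not called. Over all genes tested the share was 7.22%, and nothing is read from these counts.

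Transcripts known to be bound by Hu proteins were next followed in the same fit, with a list of 12 targets of the neuronal members. Of these, 1 was lower and 1 was higher in KO, with a median log2 fold change of 0.017, against -0.0047 over all genes tested. The shares called over all genes tested were 3.21% lower and 4.01% higher in KO. *Gap43*, which encodes a growth cone protein and is a classical target of HuD, was at 726, 752 and 708 CPM across Het1, Het2 and Het3, and 534, 599 and 506 CPM across KO1, KO2 and KO3. It fell by 0.42 on the log2 scale (edgeR, adjusted p = 0.0155, standard error 0.066). The highest KO library was below the lowest Het library. *Neurod6* rose by 0.99 from a Het mean of 0.303 CPM (adjusted p = 0.0250, edgeR). *Mapt*, the tau gene and after *Gap43* the most abundant of the list per kilobase, had a log2 fold change of 0.042 (edgeR, adjusted p = 0.689, standard error 0.063). *Gap43* was not called without Het2 or without Het3, nor was *Neurod6*, which was also lost without KO1 or KO2.

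A list of 22 targets of *Elavl1*, many of them genes of the cell cycle and of survival, held 1 gene higher and 1 lower in KO. Its median log2 fold change was 0.023, and 7.22% of all genes tested were called. *Vegfa*, the angiogenic growth factor, was at 59.0, 55.6 and 52.8 CPM across Het1, Het2 and Het3, and 76.0, 78.6 and 79.1 CPM across KO1, KO2 and KO3, a log2 fold change of 0.48 (edgeR, adjusted p = 0.0044, standard error 0.045). It was called in all 6 fits that left out a library. *Sirt1*, a deacetylase gene, fell by 0.29 on the log2 scale (adjusted p = 0.0429, edgeR), and was not called without Het2, Het3, KO1 or KO2. The most abundant genes of the list per kilobase, *Ptma* and *Actb*, had log2 fold changes of -0.041 and -0.12 (adjusted p = 0.684 and 0.212, edgeR).

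Of 17 other proteins that bind AU-rich elements or act with Hu proteins, 1 was differentially expressed, against 7.22% of all genes tested. *Tia1*, the gene of a stress granule protein, rose from a mean of 75.3 ± 0.191 in Het to 91.8 ± 2.55 CPM in KO (SD over 3 libraries each), or by a log2 value of 0.29 (edgeR, adjusted p = 0.0056, standard error 0.029), and was called in all 6 fits that left out a library. The most abundant of the list per kilobase, *Ybx1* and the HuR ligand gene *Anp32b*, had log2 fold changes of 0.019 and 0.034 (adjusted p = 0.881 and 0.733, edgeR). The median of the list was 0.019.

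The neurons that carry HuC and HuD were followed by marker lists. In the ganglion cell list, 2 of 16 genes were lower and 2 higher in KO, with a median log2 fold change of -0.097. Among all genes tested, 3.21% were called lower and 4.01% higher. *Isl1*, a LIM homeobox gene of ganglion and amacrine cells, was at 117, 125 and 122 CPM across Het1, Het2 and Het3, and 74.5, 80.3 and 72.4 CPM across KO1, KO2 and KO3. It fell by 0.68 on the log2 scale (edgeR, adjusted p = 0.0021, standard error 0.047). *Irx2* fell by 0.50 (adjusted p = 0.0145, edgeR). *Thy1* and the heavy neurofilament gene *Nefh*, which come up as ganglion cells mature, rose by 0.99 and 0.54 (adjusted p = 0.0248 and 0.0336, edgeR). The most abundant of the list per kilobase, *Sncg* and *Nefl*, had log2 fold changes of -0.27 and 0.21 (adjusted p = 0.0764 and 0.117, edgeR). *Isl1* was called in all 6 fits that left out a library, *Irx2* not without Het2 or Het3, *Thy1* not without Het2, Het3 or KO2, and *Nefh* only without KO3.

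In the amacrine and horizontal cell list, 7 of 17 genes were differentially expressed, all 7 higher in KO, and the median log2 fold change was 0.23. Over all genes tested the share called was 7.22%. Of the 17 genes, 13 had a positive log2 fold change. The others were between -0.19 and -0.012, and none of them was called. *Tfap2b*, a transcription factor of amacrine and horizontal cells, rose from a mean of 200.5 ± 12.8 in Het to 291 ± 19.8 CPM in KO (SD over 3 libraries each), or by a log2 value of 0.54 (edgeR, adjusted p = 0.0078, standard error 0.065). *Gad1*, which makes the transmitter GABA, was at 5.06, 3.88 and 3.85 CPM across Het1, Het2 and Het3, and 12.3, 11.8 and 10.9 CPM across KO1, KO2 and KO3. Its log2 fold change was 1.45 (edgeR, adjusted p = 0.0032, standard error 0.13). *Prdm13* had a log2 fold change of 0.12 (adjusted p = 0.0904, edgeR). The number was 3 without Het2 and 4 without Het3.

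Among 20 pan-neuronal genes, 2 were lower and 1 was higher, and the median log2 fold change was -0.076. As a background, 3.21% of all genes tested were called lower and 4.01% higher. *Cntn2*, an axonal adhesion molecule, was at 422, 463 and 476 CPM across Het1, Het2 and Het3, and 167, 258 and 204 CPM across KO1, KO2 and KO3. It fell by 1.11 on the log2 scale (edgeR, adjusted p = 0.01001, standard error 0.15). *Tubb3*, the neuronal beta tubulin, fell by 0.35 (adjusted p = 0.0196, edgeR), and *Map2*, a dendritic microtubule protein gene, rose by 0.36 (adjusted p = 0.0077, edgeR). *Stmn1* had a log2 fold change of -0.23, under the limit on size. *Tubb3* was not called without Het2 or without Het3, while *Cntn2* and *Map2* were called in all 6 fits.

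**Figure D4:**
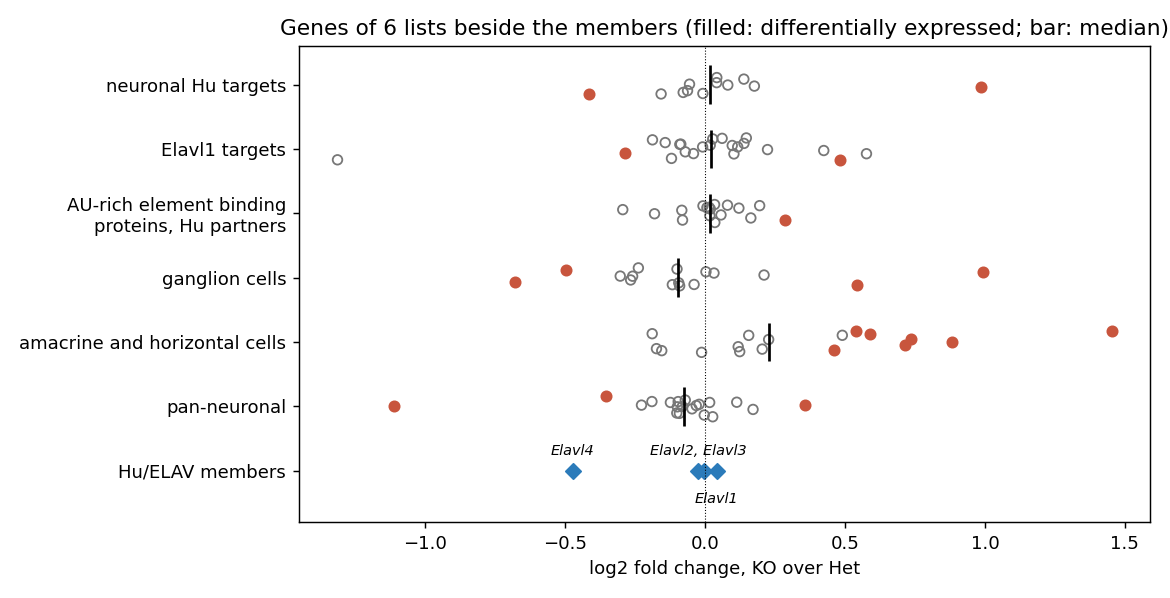
Log2 fold change of KO over Het (horizontal axis) for each tested gene of the 6 lists and, in the bottom row, for the 4 members (blue diamonds). Filled red points are differentially expressed genes, open points are not, and vertical bars are the medians of the lists, which run from -0.097 for ganglion cells to 0.23 for amacrine and horizontal cells.

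Markers of other tissues were checked. Het1 stood apart in the muscle and pigmented-cell lists, and KO1 and KO2 were the lowest libraries in the lens and erythroid lists. The summed level of 12 skeletal muscle genes was 344 CPM in Het1 and 5.97 to 7.15 CPM in the other libraries, and that of 6 pigmented-cell genes 520 CPM in Het1 and 19.1 to 58.7 CPM elsewhere. The muscle gene *Tnnc2* and the pigment epithelium gene *Rpe65* were at or near 0 counts in all libraries. Without Het1, the numbers of genes called were 2 of the neuronal targets, 2 of the *Elavl1* targets, 1 of the AU-rich element binding proteins, 3 of the ganglion cell genes, 7 of the amacrine and horizontal cell genes and 3 of the pan-neuronal genes. The summed level of the lens list was 14.5 CPM in WT, 23.8 to 78.4 CPM in Het and 57.5 CPM in KO3. In KO1 and KO2 the lens sum was 2.52 and 6.35 CPM. That of the erythroid list was 169 CPM in WT, 86.5 to 253 CPM in Het and 141 CPM in KO3. In KO1 and KO2 the erythroid sum was 20.3 and 13.9 CPM. Without KO3, which left KO1 and KO2, the log2 fold change of *Elavl4* was -0.47. Without KO1 or without KO2 it was -0.41 and -0.54, and each of these fits kept the other of the pair. The part of these tissues in the results was not otherwise tested.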

How the data were processed

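A stranded mRNA kit was used for the 7 libraries of pooled E16 retinas. The authors ran STAR through the rMATS-turbo pipeline on GRCm38 (mm10), and featureCounts gave the gene totals. The deposited values are whole-number counts per gene without normalization. Tool versions, the strand setting and how reads with several matches were handled are not given in the sources used here. The methods name a column kit for RNA extraction, the labels TRIzol.

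All 7 libraries entered one edgeR 4.0.16 fit (R 4.3.3) after filterByExpr (20019 genes) and TMM scaling, with a mean per genotype. KO was compared with Het by the quasi-likelihood test, with Benjamini-Hochberg adjustment over all genes tested, and a call needed an adjusted p below 0.05 together with a log2 change beyond 0.263 either way. The standard error is the size of the log2 fold change over the square root of F. On simulated counts, edgeR called 70 of 100 genes changed by 0.5 on the log2 scale and 93 of 100 changed by 1. It also called 12 unchanged genes. A gene that was not called may therefore still have changed. Lengths and positions come from GENCODE M21 (GRCm38), which places 19931 tested genes. Log2 CPM for profiles, ratios and WT used a prior count of 2. Replicates were not copies: chi-square per gene between them was 14.0 to 53.2.

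The members, the gene lists and the tests were chosen with earlier results of these data known. Named genes are the members, *Ptbp1* and *Ptbp2*, the 2 most abundant genes of each of 6 lists with up to 3 called genes in each direction by smallest p, and the 3 genes most like each member. *Cdkn2c* and the tissue markers named were added after their values were seen. The alternatives were DESeq2 1.42.0, other scalings and filters, the Het and KO libraries alone, a replicate block, fits without 1 Het or KO library, no limit on fold, and other lengths. Splicing was not analysed here. A gene that the naming rule picked is not reported here.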

Additional observations from a re-analysis of the deposited data

How the results depend on the processing

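The log2 fold change of *Elavl4*, given as a description, stayed between -0.54 and -0.41 in 14 alternatives and met both limits in 12. Those of *Elavl1*, *Elavl2* and *Elavl3* moved by less than the replicate SD, except for *Elavl1* with total counts alone (0.068), and ranged with a library left out from 0.026 to 0.051, from -0.041 to 0.020 and from -0.066 to 0.019. That of *Elavl4* then ranged from -0.54 to -0.41. The number of genes called was 386 to 1673 with a library left out (386 without Het2, 496 without Het3 and 612 without KO2), 2221 by adjusted p alone and 2066 by DESeq2. With a library left out, the lists held 0 to 2 calls (neuronal Hu targets), 1 to 2 (*Elavl1* targets), 1 to 2 (AU-rich element binding proteins), 1 to 5 (ganglion cells, 1 without Het2 or Het3), 3 to 7 (amacrine and horizontal cells) and 2 to 4 (pan-neuronal). Neuronal Hu targets had 1 call without KO1 or KO2 and 0 by edgeR without Het2 or Het3, where 4 of the 12 targets had an unadjusted p below 0.05, and DESeq2 called 2 with all libraries. *Elavl1* targets had 1 call with total counts alone and 5 by adjusted p alone. The AU-rich element binding proteins had 2 calls by DESeq2 and 3 by adjusted p alone, and the pan-neuronal list 5 by adjusted p alone. Per coding length, the mean difference of *Elavl4* over *Elavl1* was 0.070, and *Elavl4* was above in 4 of 7 libraries. Where a value moved, the cause was not tested.

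Libraries with the same replicate number did not deviate together (correlations of -0.20, 0.16 and -0.074 for numbers 1 to 3). With the replicate number as a block, 1268 genes were called, the AU-rich element binding proteins had 2 calls, and *Elavl4* had a log2 fold change of -0.47. The depth of 120593979 counts or more leaves counting error small for the members, so 3 libraries per group and a single WT library set the limits.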

Other observations

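Progenitor, photoreceptor, vessel and microglia markers were counted in the same fit, as gene groups beside the neurons that carry Hu proteins. Of 13 progenitor genes, 3 were differentially expressed, all 3 higher in KO, with a median log2 fold change of 0.057. The share called higher over all genes tested was 4.01%. *Fabp7*, a fatty acid binding protein gene of radial glia and progenitors, rose from 42.9 ± 3.02 to 58.8 ± 4.48 CPM (SD, n = 3 each; edgeR, adjusted p = 0.0148), and *Notch1* from 330 ± 12.1 to 405 ± 15.9 CPM (SD, n = 3 each; edgeR, adjusted p = 0.0130). The third, *Hes5*, a Notch target, had a log2 fold change of 0.32 (edgeR, adjusted p = 0.0475) and lost its call whichever of the 6 Het and KO libraries was dropped. *Fabp7* was not called without Het2, and *Notch1* not without Het2 or KO2, so that without Het2 all 3 calls were lost.

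The median log2 fold change of 10 photoreceptor genes was 0.62. Of these genes, 6 were called, all 6 higher, against 4.01% called higher over all genes tested. Without Het2 or without Het3 only 1 of them, *Prdm1*, was called, and *Nrl*, *Rcvrn*, *Opn1sw*, *Gnat2* and *Rbp3* were not. *Prdm1*, a transcription factor of young photoreceptors, had a Het mean of 102 ± 13.8 CPM and a KO mean of 163 ± 0.949 CPM (SD, n = 3 each), against 35.8 CPM in the WT library, with a log2 fold change of 0.69 between Het and KO (edgeR, adjusted p = 0.0092). Among 5 vessel genes, *Kdr*, the receptor of the *Vegfa* product, rose by 0.44 (edgeR, adjusted p = 0.0186) and *Pdgfrb* of pericytes fell by 0.41 (edgeR, adjusted p = 0.0233). The endothelial markers *Pecam1* and *Cdh5*, at 4.01 and 6.59 CPM in Het against 368 CPM for *Kdr*, had log2 fold changes of -1.45 and -1.73 (edgeR, adjusted p = 0.218 and 0.199), and the median of the list was -0.41. *Kdr* was not called without Het2 or Het3, and *Pdgfrb* not without Het2, Het3, KO1 or KO2. All 5 microglia genes had a positive log2 fold change, with a median of 0.61, and 1 was called. This gene, *Cx3cr1*, had a log2 fold change of 0.71 (edgeR, adjusted p = 0.0429) and was called in 1 of 6 fits that left out a library. These genes were picked for naming after their values were seen.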
